A study of Mus musculus with 15 samples.

Results

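In mouse liver, 205 transcripts, 1 for each gene symbol, carried more ribosome-protected reads ahead of the coding sequence (CDS), in the 5′UTR, than in the CDS itself. A transcript was taken when its 5′UTR held a mean of at least 10 reads per library and its 5′UTR reads, added over 14 libraries, exceeded its CDS reads added in the same way. Of 28167 transcripts, 26301 had a 5′UTR, 7697 passed the minimum and 302 of these qualified. For each gene the qualifying transcript with most 5′UTR reads was kept, which gave 205 5′UTRs, 198 with a gene symbol and 7 without. A transcript without a symbol can repeat a named gene, and 1 of the 7 had the CDS length of Zfp2 and the same CDS count in every library. They are 3.88% of the 5278 genes that passed the minimum. They were thus selected on the reads of both regions, and the ratios below describe the selected 5′UTRs and test nothing.

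The libraries came from whole liver of wild-type male C57BL/6N mice aged 8 to 10 weeks, kept under 12 h of light and 12 h of dark for 2 weeks and then in constant darkness for 24 h. Livers were taken from CT0 to CT24 in steps of 4 h of circadian time, from 2 mice at each step, and ribosomes were held in place with cycloheximide during lysis. There was no mutant or treated group. P-values therefore refer to the spread between mice, and in whole tissue fewer cells of a type and less RNA per cell cannot be told apart.

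A ribosome that scans from the cap can start at an AUG ahead of the CDS. If a stop codon follows in frame within the 5′UTR, the stretch is an upstream open reading frame (uORF), and ribosomes that translate it leave footprints in the 5′UTR, often at the cost of the main CDS. Transcripts of the integrated stress response and of polyamine metabolism are the classical cases of this control. Reads in a 5′UTR can also belong to an overlapping CDS, of a longer isoform of the gene or of a neighbour, since 1 stretch of genome can be 5′UTR in one transcript and CDS in another.

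Sequences of 10 of these 5′UTRs are shown first because they hold upstream start codons of the genes described most closely below. The counts below are totals over the whole 5′UTR, not reads at these codons. They were read from the mouse genome GRCm38 with its RefSeq annotation, on the sense strand, by searching each spliced 5′UTR for ATG and for TAA, TAG or TGA in the same frame. Capitals mark the ATG and, where the stretch shown reaches it, the stop codon.
Cebpa uORF: gccATGccgggagaactcTAA
Cebpa in-frame start: aactcccccATGgagtcg
Atf4 uORF: accATGgcgtatTAG
Atf4 overlapping frame: gcctaagccATGgcgctc
Atf5 uORF: atgATGcggaaggggcacggcTAG
Ddit3 uORF: gattatatcATGttgaag
Ppp1r15a uORF: gagggcgacATGaacccg
Ifrd1 uORF: gagagaaacATGtatcgt
Azin1 uORF: ctgATGatagggggttccatctccTAA
Mkks uORF: aaagaagaaATGaaaaac
Ptp4a1 uORF: tggATGgggTAA
Ptp4a3 uORF: ctgATGgggTAA

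The Cebpa uORF encodes 5 codons and lies at chr7:35119391-35119411 on the plus strand, with the in-frame start close behind it at chr7:35119410-35119427. The Atf4 uORF, of 3 codons, lies at chr15:80255579-80255593 on the plus strand. The overlapping Atf4 frame opens in the last stretch of the 5′UTR, runs for 59 codons into the CDS in another frame, and its shown bases are joined across an intron between chr15:80255672 and chr15:80256210. The Atf5 uORF of 6 codons lies at chr7:44815531-44815554 on the minus strand. The atg in small letters just ahead of its capitals opens the same frame, with 7 codons and the same stop. The Ddit3 uORF starts within chr10:127290820-127290837 on the plus strand and has 34 codons, and that of Ppp1r15a starts within chr7:45526081-45526098 on the minus strand, has 26 codons and ends 23 nt before the CDS. The Ifrd1 uORF starts within chr12:40223150-40223167 on the minus strand and has 52 codons. The Azin1 uORF of 7 codons lies at chr15:38514482-38514508 on the minus strand. The Mkks uORF, 1 of 17, starts within chr2:136881589-136881606 on the minus strand and has 50 codons. Ptp4a1 (chr1:30946423-30946434, minus strand) and Ptp4a3 (chr15:73751345-73751356, plus strand), which encode related tyrosine phosphatases, shared the same uORF of 2 codons, ATGgggTAA.

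Among the 194 5′UTRs whose CDS had a mean of at least 1 read per library, the ratio (5′UTR over CDS) had quartiles of 1.21, 1.6 and 2.47. It was over 2 in 66, over 5 in 25 and over 10 in 10 of them. A further 7 had no CDS read in any library and 4 had a CDS mean under 1. The median 5′UTR held a mean of 66.9 reads per library, beside 39.4 in the other 5073 genes past the minimum. The median CDS held 34.3 reads per library, beside 434 in the other genes. Both differences follow in part from the choice itself. Reads were unevenly spread among them, with 44.7% of their 5′UTR reads in the 12 highest and 21.6% in Cebpa and Ptms alone.

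**Figure D1:**
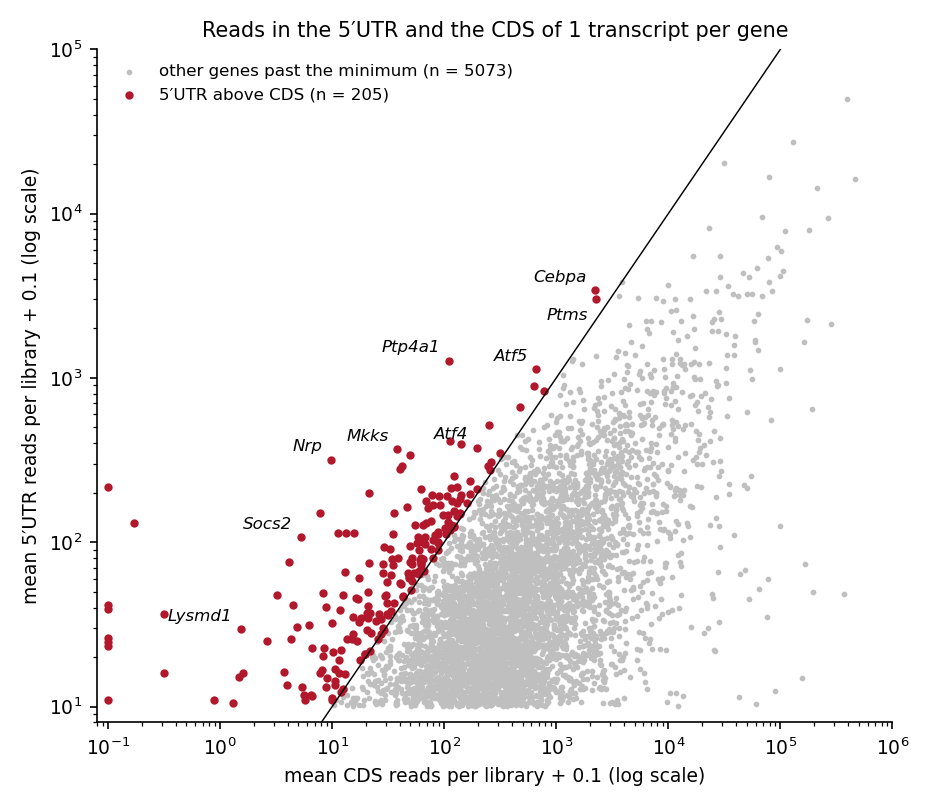
Mean reads per library in the 5′UTR (y axis) against the CDS (x axis), both on log axes after adding 0.1, for 1 transcript of each gene past the minimum of 10 5′UTR reads. The 205 chosen transcripts lie above the line of equal reads by construction, and most sit where CDS reads are few, with a median CDS mean of 34.3 against 434 in the others.

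At the threshold, transcripts on either side differed by a few reads. Just inside were Ramac with 1120 5′UTR and 1118 CDS reads, Tesk1 with 407 and 406, and Extl3 with 1719 and 1712. Just outside were Ankrd50 with 151 reads in each region, Mfsd14b with 3246 and 3248, and Psph with 884 and 885. The highest ratio with a CDS mean of at least 1 was that of Nrp, with 4458 5′UTR and 136 CDS reads, followed by Socs2 (1498 and 72), Lysmd1 (412 and 20), Il4i1b (2097 and 108) and Slc35a4 (1054 and 56).

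The excess was not equally steady from mouse to mouse. The 5′UTR was above the CDS in all 14 libraries for 51 of the 205, in at least 12 libraries for 100, and in 7 or fewer for 25, with 5 as the fewest. Among the 161 with a CDS mean of at least 10, the median SD of the log2 ratio between the mice of a time point was 0.74. Per library, between 131 and 184 of the 205 were above. The lowest of these numbers came from CT16 replicate 2, in which every deposited count was even, whereas 45.7% to at most 50% of counts were even in the other libraries. Whether reads of this library had been counted more than once was not tested. Without that library the same rule chose 217 transcripts.

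Total counts per library ranged from 40593197 to 90458783, and the chosen 5′UTRs held 0.402% to 1.27% of all 5′UTR reads. Of 8 hepatocyte markers, 7 were in the tables, and their sum was 28600 to 64200 CPM (counts scaled to the size of the library). Markers of Kupffer cells (73.0 to 190), endothelial cells (82.8 to 195), stellate cells (87.0 to 222) and erythroid cells (40.9 to 137) were far lower. Markers of pancreatic acinar cells had a median sum of 7.35 CPM but reached 3240 in CT20 replicate 2. None of these markers was among the 205, and the part of cell mixture in the results below was not tested.

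The most heavily read of the 205, Cebpa, encodes C/EBPα, a transcription factor of hepatocytes. Its 5′UTR had 48006 reads and its CDS 31159, and the 5′UTR share of the 2 regions was lowest at 47.4%, had a median of 61.2% and was highest at 68.4% over the libraries. It was above 50% in 13 of 14 libraries, the exception being CT16 replicate 2. In the annotation, 98.0% of this 5′UTR is CDS in another Cebpa transcript. The transcript in the tables has a short CDS of 442 nt by the file, and 3 ATGs ahead of it open the same frame, giving proteins of 359, 345 and 242 codons. Footprints over those longer frames fall in what the tables count as 5′UTR, and the 5-codon uORF, which occupies 2.35% of the 5′UTR, cannot be told apart from them in these counts.

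Of 21 genes listed for stress response and uORF control, 17 passed the minimum and 7 were chosen, namely Cebpa, Atf5, Atf4, Ifrd1, Slc35a4, Ppp1r15a and Ddit3. That is 41.2%, beside 3.88% of all genes past the minimum, but the list was made with the behaviour of such genes in mind. Of those not chosen, Cebpb reached a ratio of 0.918 and Ppp1r15b 0.671.

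Atf5, a leucine zipper factor of the mitochondrial stress response, had 15832 5′UTR and 9252 CDS reads. Its 5′UTR share was lowest at 57.7%, with a median of 61.9% and a high of 72.8%, above 50% in all 14 libraries. Its 5′UTR holds 4 uORFs and 2 ATGs that run past the CDS start out of frame. Atf4, the central factor of amino acid and ER stress, had 5258 and 2728 reads and a share of 51.6%, 66.3% and 73.4% (lowest, median and highest), also above 50% in all 14 libraries. In both genes, every mouse thus had more footprints ahead of the CDS than in it.

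The other stress genes had fewer reads. Ppp1r15a (GADD34), which brings phosphatase to eIF2α, had 665 5′UTR and 175 CDS reads, and its share ran from 65.7% over a median of 80.0% to 100%. Its 3 uORFs covered 79.9% of the 5′UTR. Ddit3 (CHOP), a factor of ER stress, had 560 and 122 reads with a share from 43.6% over 82.4% to 100%, and its 2 uORFs, 1 frame with 2 ATGs, covered 62.9% of the 5′UTR. Ifrd1, a transcriptional co-regulator, had 1102 and 480 reads, a share from 48.6% over 71.0% to 90.4%, and a single uORF over 68.2% of the 5′UTR. Slc35a4, named as a solute carrier of the nucleotide sugar family, had 18 uORFs over 84.4% of its 5′UTR and was above in 14 libraries. Counts of Ddit3 and Ppp1r15a were so low, with 0 CDS reads in some libraries, that their shares carry wide counting error.

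**Figure D2:**
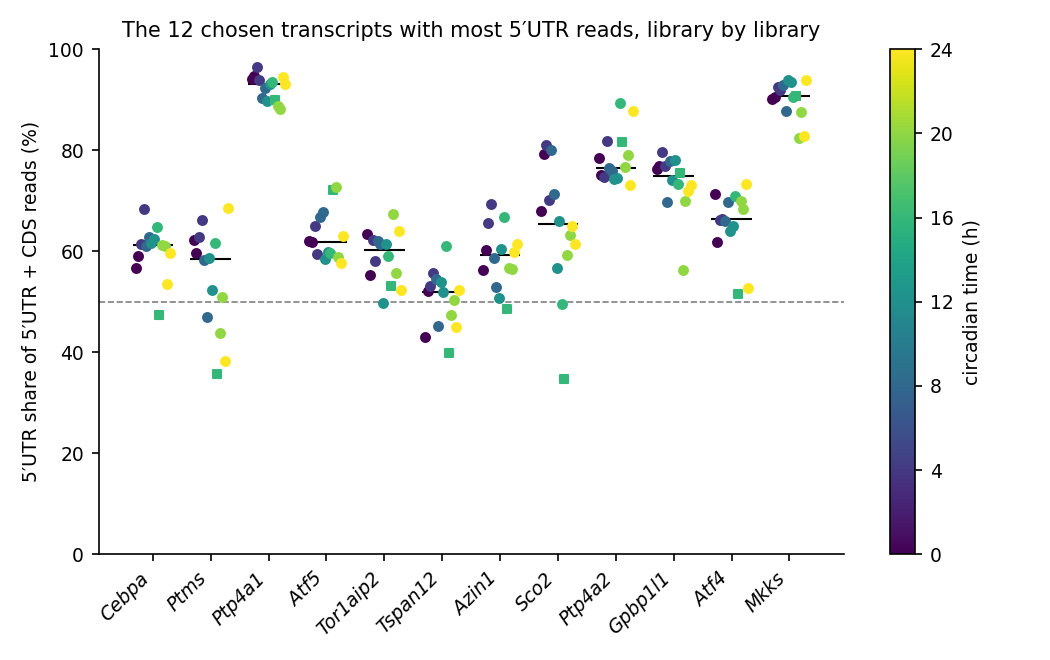
Share of 5′UTR reads in the sum of 5′UTR and CDS reads (percent, y axis) for the 12 chosen transcripts with most 5′UTR reads, 1 point per library coloured by circadian time, with a bar at the median, the square marking CT16 replicate 2 and the dashed line 50%. Ptp4a1, Mkks and Ptp4a2 lie far above the line in every library, while Cebpa, Ptms, Tor1aip2, Tspan12, Azin1 and Sco2 cross it in 1 or more libraries.

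Azin1, the antizyme inhibitor that keeps ornithine decarboxylase from degradation, was the single gene of polyamine metabolism chosen, of 6 that passed the minimum. It had 9351 5′UTR and 6633 CDS reads and a share of 48.5%, 59.2% and 69.4% (lowest, median, highest), above 50% in 13 libraries. Its 6 uORFs with an ATG start covered 40.1% of the 5′UTR. Sat1, which acetylates polyamines for breakdown, came next in that list with a ratio of 0.671.

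The PRL phosphatases were chosen as a family. Ptp4a1 had 17759 5′UTR and 1541 CDS reads, with a share of 88.1% at the lowest, 93.1% at the median and 96.5% at the highest. Ptp4a2 had 5778 and 1574 reads, with a share of 73.1%, 76.5% and 89.4%. Both were above 50% in all 14 libraries. Ptp4a3 had 361 and 187 reads and was above in 10. The 5′UTRs hold 6, 6 and 13 uORFs in this order. For Ptp4a1, 98.7% of the 28-nt windows of the 5′UTR occur elsewhere in the genome, and for Ptp4a2 53.2%, so such reads have more than 1 possible origin. The study's methods name uniquely placed reads for its density profiles, but whether the region counts were made from the same reads is not given in the sources used here.

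Mkks, a chaperonin-like protein of the Bardet-Biedl group, had 5160 5′UTR and 528 CDS reads. Its share was 82.5% at the lowest, 90.7% at the median and 94.0% at the highest. The 17 uORFs of its 998-nt 5′UTR covered 60.8% of it, and 1 further ATG ran past the CDS start. Pnrc2, a nuclear receptor coactivator that also takes part in mRNA decay, had 4731 and 689 reads and was above in all 14 libraries. Its 2 uORFs, 1 frame with 2 ATGs, covered 43.2% of the 5′UTR.

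Socs2, which damps growth hormone signalling in liver, had few CDS reads, although 7 of the 205 had none. It had 62, 211, 71, 169, 39, 32, 181, 221, 175, 76, 30, 61, 77 and 93 5′UTR reads in the libraries in order of time and replicate, and between 0 and 14 CDS reads. The 5′UTR exceeded the CDS in every library. It has no uORF closed within the 5′UTR but an ATG whose frame of 113 codons overlaps the CDS start, and 26.0% of its windows occur elsewhere in the genome.

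**Figure D3:**
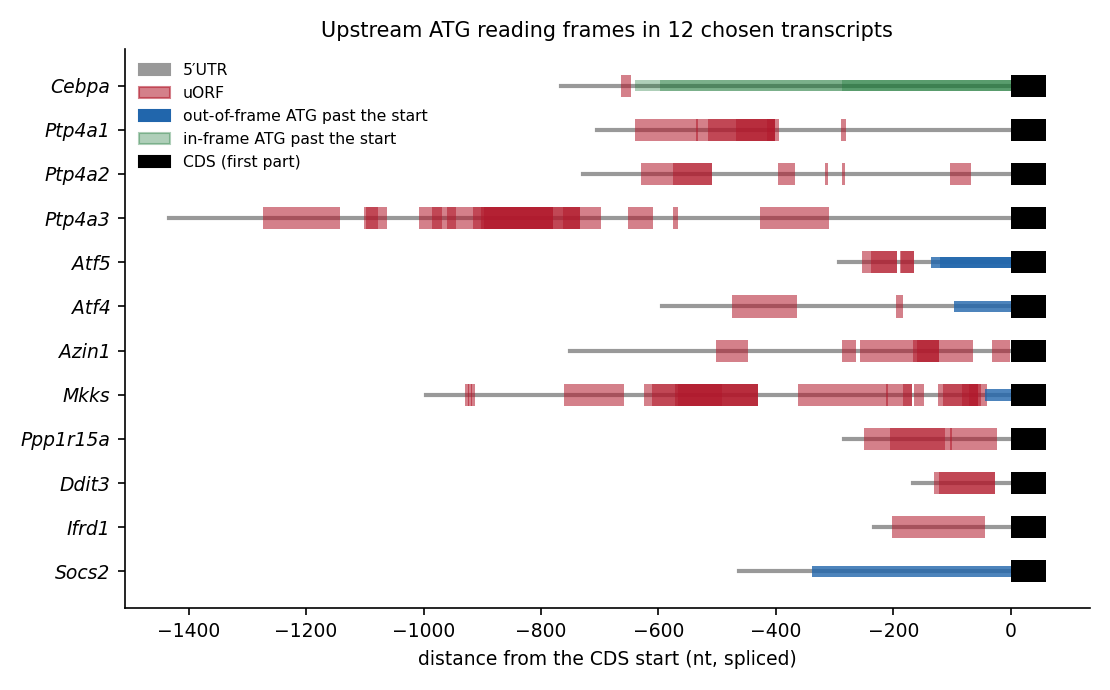
Maps of 12 chosen 5′UTRs, drawn to scale by distance from the CDS start in nt (x axis), with uORFs, frames that overlap the CDS start and in-frame starts as bars. Mkks and Ptp4a3 hold many short frames, whereas in Ifrd1, Ddit3 and Ppp1r15a few uORFs cover most of the 5′UTR (68.2%, 62.9% and 79.9%).

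For 172 of the 205, the lengths in the tables matched the annotation, taken as a difference of at most 1 nt per exon, so that sequence could be assigned. The same held for 4211 of the 5073 other genes, which serve as the background below. Matched 5′UTRs of the chosen transcripts were long, with a median of 555 nt (quartiles 340 and 777) beside 226 nt in the others, and their CDS was short, with a median of 720 nt beside 1320 nt. In 63 (36.6%) the 5′UTR was longer than the CDS, beside 2.14% of the others. Both lengths enter a comparison of read numbers directly. Per nucleotide, 182 of the 205 still had denser reads in the 5′UTR, but so had 1403 of the 5073 others.

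Upstream start codons were frequent. At least 1 uORF was present in 146 of 172 (84.9%), beside 52.7% of the others, and at least 5 in 74 (43.0%), beside 8.67%. A uORF whose ATG had a purine at −3 and a G at +4, the bases of a favourable start context, was present in 84 (48.8%), beside 21.3%. The median number of uORFs was 4, beside 1, and per 100 nt of 5′UTR it was 0.765, beside 0.236. Median G+C content was 57.8%, beside 63.2%. The CDS start itself had the favourable context in 32% of the chosen transcripts and in 39.0% of the others.

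Much of the difference in uORFs went with length. Among 5′UTRs of up to 250 nt, 44.8% of 29 chosen and 31.7% of 2365 other transcripts had a uORF. Over 250 and up to 500 nt the values were 86.5% of 52 and 74.3% of 1344, over 500 and up to 1000 nt 95.7% of 70 and 93.1% of 448, and above 1000 nt 100% of 21 and 100% of 54. In the class that ends at 500 nt the median number of uORFs was 3, beside 1, and in the class that ends at 1000 nt it was 6, beside 4. Above 500 nt, having a uORF was thus almost as common in the other transcripts.

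**Figure D4:**
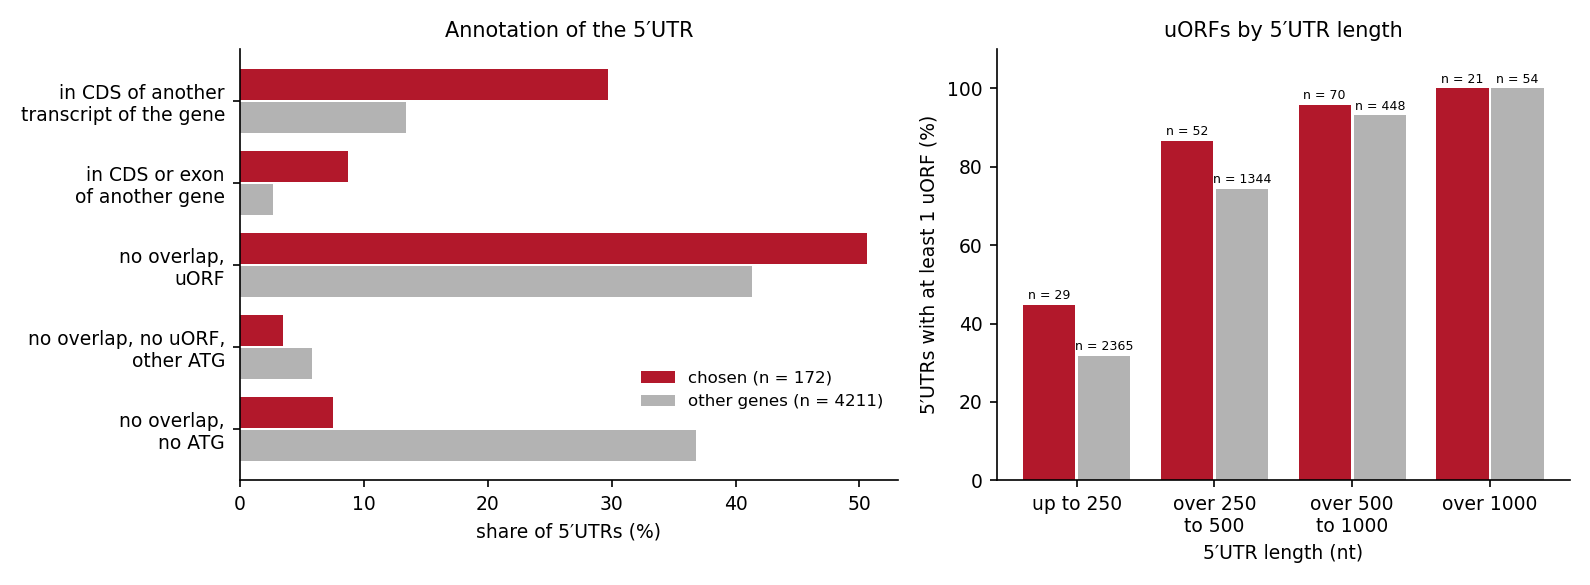
Left, percent of the 172 chosen and 4211 other 5′UTRs in 5 classes of overlap and upstream ATGs. Right, percent with at least 1 uORF by 5′UTR length in nt, where both groups reach 100% above 1000 nt and differ most at up to 500 nt.

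An overlapping CDS was the other common feature. In 51 of 172 (29.7%) the 5′UTR overlapped the CDS of another transcript of the gene, beside 13.4% of the others. Examples after Cebpa were Tmpo (74.2% of the 5′UTR), a protein of the nuclear lamina, Bag1 (81.6%), a cochaperone of Hsp70, Smn1 (74.2%), the survival motor neuron protein, and Atf2 (57.8%), a bZIP transcription factor. In all, 107 of the 205 genes had more than 1 transcript in the tables, and in 38 of these another transcript had more CDS reads than the chosen one had 5′UTR reads.

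In a further 15 (8.72%, beside 2.73%) the 5′UTR overlapped the CDS or an exon of another gene. The 99-nt 5′UTR of Nrp, whose ratio was the highest with a CDS mean of at least 1, lay to 88.9% over the CDS of Slirp on the opposite strand. Its 5′UTR had between 143 and 465 reads in each library and its CDS between 0 and 33. SLIRP is a mitochondrial RNA-binding protein, and whether the counting used strand is not given in the sources used here. Taf9, a subunit of TFIID, shared 92.0% of its 5′UTR with exons of Ak6 and 56.8% with the Ak6 CDS. Asnsd1 shared 100% with exons of Asdurf, a gene annotated for the uORF of this transcript, and 67.4% with its CDS. Prn had 1832 5′UTR reads and 1 CDS read, and 75.7% of its 5′UTR was shared with exons of the prion gene Prnp. Shared exons of this kind were also present in Il4i1b (40.0% shared with Nup62) and Adat3 (79.1% with Scamp4).

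No overlap of either kind was present in 106 (61.6%), beside 83.9% of the others. Of these, 87 had a uORF, 6 had only an ATG whose frame passes the CDS start, and 13 had no ATG at all in the 5′UTR. Those 13 (7.56%, beside 36.8%) included Ptms, Tor1aip2, Pabpc4 and Hspa1a. Ptms, or parathymosin, a small acidic nuclear protein, had 42050 5′UTR and 31880 CDS reads and a share of 35.7%, 58.5% and 68.6% (lowest, median, highest), above 50% in 10 libraries. Tor1aip2, a gene named for a partner of torsin, was represented by a transcript with a short CDS of 397 nt. It had 12549 and 8886 reads with a share of 49.8%, 60.3% and 67.4%. Their reads cannot be assigned to a frame that starts at ATG, and starts at other codons were not tested.

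Repeated sequence was a further limit. At least 25% of the 28-nt windows were found elsewhere in the genome in 24 of 172 (14%), beside 4.8% of the others. They included Lysmd1 and Zfp931 (100% each), Ptp4a1, Pabpc4 (80.1%) and Hspa1a (73.0%), the last a heat shock protein with a near-identical neighbour. With overlaps and repeats both set aside, 88 of the 172 were left (51.2%, beside 79.2% of the others), and 75 of these 88 (85.2%) had a uORF, beside 50.5% of the 3337 others left.

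The 33 5′UTRs without matching lengths, 26 of them with a symbol, were kept out of these counts. Tspan12, a tetraspanin of Norrin signalling, had 11626 5′UTR and 10950 CDS reads and a share of 39.9%, 52.0% and 61.1% (lowest, median, highest), above 50% in 9 libraries. Gpbp1l1, a GC-rich promoter-binding protein, had 5573 and 1980 reads with a share of 56.3%, 74.8% and 79.6%, above in all 14. Sco2, a copper chaperone of cytochrome c oxidase, came after Tspan12 in this class, with 7283 and 3490 reads and a share of 34.7%, 65.5% and 81.0%. Its annotated 5′UTR is 405 nt against 334 nt in the tables, and 73.8% of the annotated bases lie in the CDS of Tymp on the same strand. In the same way 39.1% of the annotated 5′UTR of Snrpn lies in the CDS of Snurf, the upstream frame of a bicistronic transcript.

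Gene families contributed unequally. Families were taken by the start of the symbol alone, so they miss members with other names, such as Ptp4a1 among phosphatases and Ddit3 among transcription factors. Symbols of zinc finger genes gave 15 of 107 (14%) and those of cell surface receptors 6 of 38 (15.8%), beside 3.88% of all genes. The 6 include Gprasp1, a sorting protein of receptors and not a receptor, and Olfr56, which had 0 CDS reads and no matching length. In Il15ra and Gpr137, 53.0% and 48.4% of the 5′UTR lay in the CDS of another transcript of the gene, beside 0% in Adra1a and Gpr4. Symbols of transcription factors gave 6 of 102 (5.88%), kinases and phosphatases 3 of 93 (3.23%), solute carriers 2 of 127 (1.57%) and multigene liver families 1 of 75 (1.33%). None of 67 genes named for ribosomal proteins and none of 70 named for mitochondrial complexes was chosen. None of 16 clock genes past the minimum was chosen either, the nearest being Fbxl21 with a ratio of 0.967, Dbp with 0.906 and Per3 with 0.729.

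Of the zinc finger genes, Zfp664 had most reads, 2102 for the 5′UTR against 497 for the CDS, and was above in all 14 libraries with 11 uORFs. Zfp672 had 940 and 838 reads with 13 uORFs, but was above in 9. Among signalling genes, Smad6, an inhibitory SMAD of the BMP pathway, had 798 and 430 reads with 10 uORFs, and Mapk6, an atypical MAP kinase, had 1255 and 1223 with 13. Of the receptors, Il15ra had 1047 and 299 reads with 6 uORFs and 53.0% of its 5′UTR in a CDS of another transcript, and the α1A adrenergic receptor Adra1a had 504 and 438 with 7.

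Circadian time had no part in the choice, so its effect could be tested. Reads of each region were fitted with a 24-h cosine and sine in edgeR (quasi-likelihood F test, Benjamini-Hochberg adjustment over all transcripts tested). Of the 205 5′UTRs, 1 (0.488%) passed an adjusted p of 0.05, beside 1.16% of all 7697. At an unadjusted p under 0.05 there were 18 (8.78%), beside 8.93%. The median fitted peak-to-trough difference was 0.71 on the log2 scale, beside 0.90 in all. The share of 5′UTRs with a rhythm was therefore near that of the background at the unadjusted threshold.

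The 5′UTR that passed was that of Tmie, a protein of the mechanotransduction complex of hair cells. Its 5′UTR had 4.20 and 5.19 CPM at CT0, 6.01 and 3.05 at CT4, 2.27 and 1.92 at CT8, 0.921 and 0.833 at CT12, 3.78 and 2.22 at CT16, 2.36 and 4.96 at CT20, and 4.36 and 5.15 at CT24. Both mice at CT12 were below all others, and the values at CT0 and CT24 overlapped. The fitted peak was at CT23.8 ± 0.86 h (SE), with a log2 peak-to-trough difference of 1.95 ± 0.39 and an edgeR adjusted p of 0.0305. Leaving out 1 library at a time moved this adjusted p between 0.00464 and 0.154, and the call was lost without any 1 of CT0 replicate 2, CT8 replicate 1, CT8 replicate 2, CT12 replicate 1, CT12 replicate 2, CT20 replicate 2 or CT24 replicate 2. The CDS of Tmie had 297 reads in all beside 2791 in the 5′UTR, and no change with time passed the test there (adjusted p = 0.336).

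In the CDS, 5 of the 161 with enough reads (3.11%) passed, beside 10.7% of 17023 transcripts, and 15 (9.32%) had an unadjusted p under 0.05, beside 23.7%. The chosen CDS were thinly read, with a median of 51.4 reads per library beside 209 in all transcripts tested. With a minimum mean of 100 CDS reads, 5 of 39 (12.8%) passed, beside 16.5% of 11510, and 30.8% had an unadjusted p under 0.05, beside 30.6%. The median fitted peak-to-trough difference in the CDS was 0.71 on the log2 scale, beside 0.46 in all. The 5 were Atf5, Ptp4a1, Azin1, Commd7 and a transcript without a symbol.

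Atf5 CDS reads were 14.3 and 20.8 CPM at CT0, 16.5 and 17.5 at CT4, 9.94 and 6.76 at CT8, 4.92 and 6.78 at CT12, 8.66 and 5.28 at CT16, 9.99 and 10.7 at CT20, and 15.8 and 8.50 at CT24. The values at CT0 and CT4 lay above those from CT8 to CT20, without overlap. The log2 peak-to-trough difference was 1.46 ± 0.28 with a peak at CT1.5 ± 0.81 h (edgeR, adjusted p = 0.000791). The 5′UTR of Atf5 had its highest means at CT0 (28.5 ± 7.37 CPM, SD, n = 2) and CT4 (28.1 ± 3.42) and its lowest at CT12 (8.53 ± 2.25). Its fitted difference was 1.34 ± 0.32, with a peak at CT1.4 ± 0.99 h, but the adjusted p was 0.0709 in edgeR and ranged from 0.0228 to 0.292 when 1 library was left out, passing the threshold without CT20 replicate 1 or CT24 replicate 2.

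Ptp4a1 CDS reads were 1.08 and 0.994 CPM at CT0, 0.542 and 1.01 at CT4, 1.97 and 1.47 at CT8, 3.52 and 1.70 at CT12, 2.44 and 2.26 at CT16, 2.81 and 3.23 at CT20, and 0.962 and 1.24 at CT24. All values from CT8 to CT20 lay above those of CT0, CT4 and CT24. The peak was at CT15.4 ± 0.75 h with a log2 difference of 1.82 ± 0.37 (edgeR, adjusted p = 0.00512). In its 5′UTR the fitted difference was 0.88 ± 0.16 with a peak at CT15.3 ± 0.70 h, and the adjusted p was 0.208. The part that repeated copies of Ptp4a1 had in these counts was not tested.

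Azin1 CDS reads had a mean of 10.3 ± 0.169 CPM at CT12 (SD, n = 2), 9.24 ± 0.0229 at CT8, 5.35 ± 0.381 at CT4 and 5.33 ± 0.372 at CT24. The peak was at CT13.5 ± 1.02 h with a log2 difference of 0.80 ± 0.19 (edgeR, adjusted p = 0.0181). In the Azin1 5′UTR the fitted difference was 0.44 ± 0.19 with a peak at CT11.9 ± 1.82 h, and the adjusted p was 0.804. Commd7, a member of the COMMD family, had its highest CDS mean at CT0 (2.78 ± 0.286) and its lowest at CT12 (1.37 ± 0.176), with a log2 difference of 0.97 ± 0.21 and an adjusted p of 0.025. Its 5′UTR overlaps the CDS of another Commd7 transcript. The fitted difference there was 0.75 ± 0.35, with an adjusted p of 0.754. For neither Azin1 nor Commd7 was a difference between the regions over time detected (edgeR ratio test, adjusted p = 0.947 and 0.989). Atf5, Ptp4a1 and Azin1 passed whichever single library was left out, whereas Commd7 did not without CT0 replicate 1, CT12 replicate 2 or CT24 replicate 2. Without both CT24 libraries, Atf5 and Ptp4a1 were the 2 that passed. The transcript without a symbol was the least stable. With 1 library left out it passed only without CT0 replicate 2, CT16 replicate 1 or CT20 replicate 1. With total counts in place of TMM the Azin1 call was lost, and with time as a factor those of Commd7 and the transcript without a symbol. JTK_CYCLE, run here on CDS counts scaled by library totals, called none of the 161 CDS, beside 0.805% of all 17023. At an unadjusted p under 0.05 the shares were 7.45% and 11.8%. The study ran JTK_CYCLE on length-scaled values of transcripts chosen as well translated, and it reported many more rhythmic transcripts. Input, choice of transcripts and program all differ, so these shares do not measure the yield of the study's own run.

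**Figure D5:**
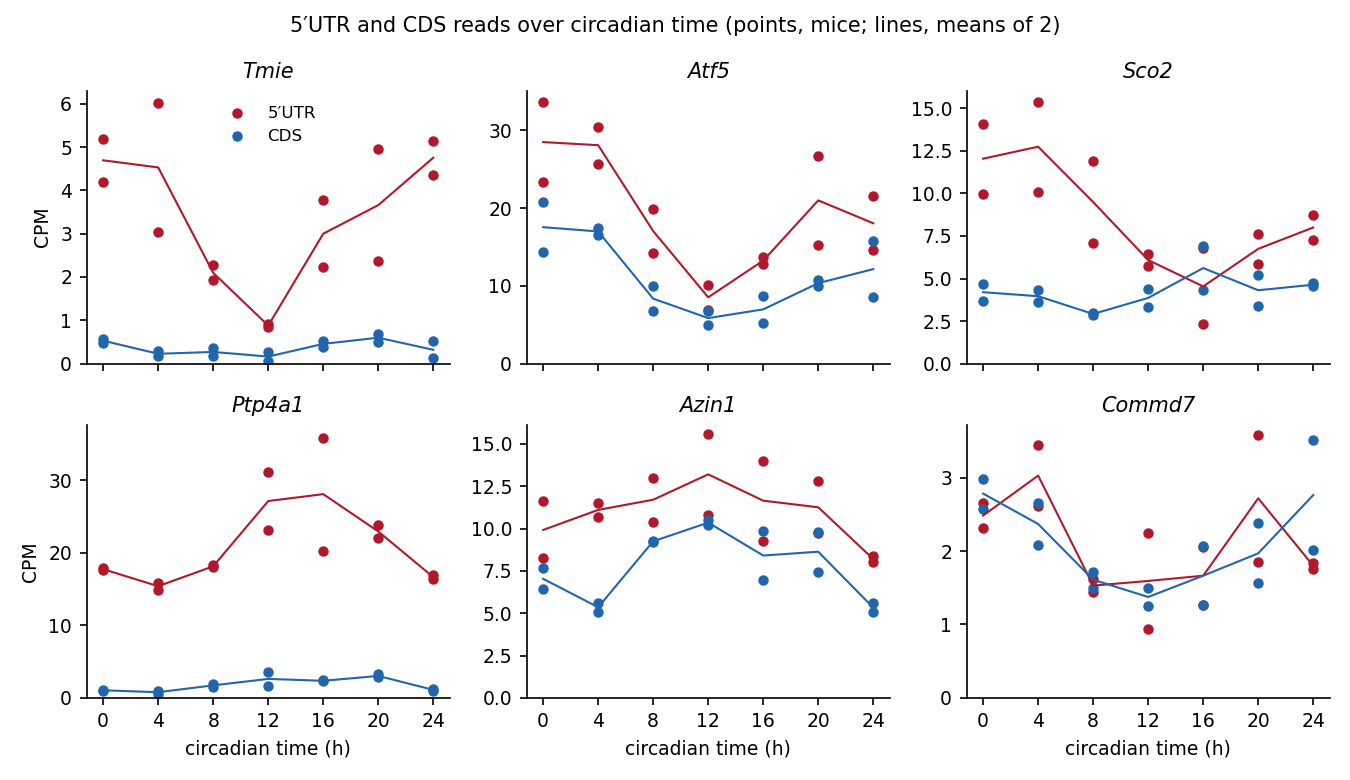
CPM of both regions over circadian time (CT in h) for Tmie, Atf5, Sco2, Ptp4a1, Azin1 and Commd7, with 1 point per library and lines through the means of 2 mice. Tmie is lowest at CT12 in the 5′UTR (0.877 ± 0.0621), and the Ptp4a1 CDS is highest from CT12 to CT20.

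The balance between 5′UTR and CDS was tested in the same libraries as an interaction of region with time. None of the 161 passed in edgeR (lowest adjusted p 0.947), and none of all 7640 transcripts did (0%). At an unadjusted p under 0.05 there were 2 (1.24%), beside 3.86%, and in limma 0 passed, with 6 (3.73%) at an unadjusted p under 0.05, beside 4.93%. The lowest p among the named genes was that of Sco2 (0.00249, adjusted p = 0.947). Its 5′UTR share was 73.6% ± 7.92 (SD, n = 2) at CT0, 75.5% ± 7.70 at CT4 and 75.7% ± 6.13 at CT8, beside 42.1% ± 10.5 at CT16, where CT16 replicate 2 gave the lowest value, 34.7%. As described, most of the annotated Sco2 5′UTR is CDS of Tymp, and the part of Tymp footprints in this share was not tested. For the genes with uORFs, including Atf4, Atf5, Ppp1r15a and Azin1, no course of the ratio over the day was detected at this depth.

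As a group, the chosen 5′UTRs held 0.939% ± 0.0256 of all 5′UTR reads in the 2 mice of CT0 (mean and SD, n = 2), 0.779% ± 0.188 in those of CT4, 0.485% ± 0.118 for CT8 and 0.549% ± 0.130 for CT12. The later values were 0.920% ± 0.493 for CT16, 0.580% ± 0.204 for CT20 and 0.719% ± 0.148 for CT24. The mice of CT16 differed most. Within the chosen transcripts, the pooled 5′UTR share of 5′UTR and CDS reads stayed between 55.2% and 66.1% in single libraries.

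Reads in the 3′UTR were few. The median chosen transcript had 0.381 3′UTR reads per kb and library, beside 1.32 in 5066 other genes, and 0.244% of its reads in the 3′UTR, beside 0.199%. More 3′UTR than 5′UTR reads were found in 1 of the 205 and in 75 of the 5066 others.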

How the data were processed

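The authors sequenced ribosome-protected fragments from 14 livers and deposited raw read counts per RefSeq transcript, separately for its 3 regions (5′UTR, CDS, 3′UTR) and without normalization. The submitters' processing notes name FastQC, Bowtie2 2.1.0.0, SAMtools 0.1.19.0 and mm10. The study's methods name uniquely aligned reads of set lengths for its density profiles. Whether the deposited region counts used the same reads, and how reads shared by transcripts were counted, is not given in the sources used here. Total counts ranged from 40593197 to 90458783 per library. Groups followed the circadian time in the sample names. The CT24 pair has CT00 in a label field, against its name, which was followed. CT16 replicate 2 had a second run, which was not used separately, and all its counts are even, so its reads may stand in the table more than once. The transcripts and gene lists were chosen with earlier results of these data known.

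Rhythms were tested with edgeR 4.0.16 in R 4.3.3 (quasi-likelihood test of a 24-h period, cosine and sine fitted together, TMM scaling from the 3 regions added, Benjamini-Hochberg adjustment at 0.05) on every transcript that averaged 10 or more counts per library in the region. The ratio was tested as the interaction of region with time, with a coefficient for each library. CPM are counts scaled by the TMM library size. Alternatives used DESeq2 1.42.0, limma 3.58.1 (log2 ratio, pseudocount 0.5) and JTK_CYCLE written in Python 3.11.15 (lags every 2 h). The study also used JTK_CYCLE, but on other values and another choice of transcripts. Each method was also run on simulated counts with the same spread for every transcript, which does not measure its performance on these data. A planned permutation test of the summed share over time was left out, since it is a score over chosen transcripts.

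Genome and annotation were GRCm38.p6 from RefSeq. Each ATG of a 5′UTR whose frame meets a stop codon before the CDS counted as 1 uORF. A 28-nt window was called repeated when the same bases occur at another place in the genome on either strand. Genes were named if they were among the 12 with most 5′UTR reads, passed a rhythm test, belonged to the clock, stress or polyamine lists, or lay at the ends of the ratio. Other families were taken by the start of the symbol, with examples in order of 5′UTR reads. Zfp672, the genes named for an overlap, Ptp4a3, Pnrc2, Smad6, Mapk6 and the receptors were chosen after their values were seen.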

Additional observations from a re-analysis of the deposited data

How the results depend on the processing

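The 205 transcripts became 75 with a minimum mean of 100 5′UTR reads, 54 if the 5′UTR had to be above in every library (51 of the 205, the rest by choosing anew), 1658 by reads per nucleotide and 112 once both the 33 without matching lengths and the 60 that overlap another CDS were left out. Leaving out 1 library at a time gave 201 to 217. The number with a uORF fell from 146 to 35 of the 49 whose 5′UTR lengths were equal in tables and annotation, and to 75 without overlaps or repeats, a setting chosen after seeing the data.

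For rhythms, the 1 call in 5′UTR reads (0.488%, beside 1.16% of all tested) became 2 with total counts (0.976%, beside 0.806%) and 3 with TMM of the region alone (1.46%, beside 1.27%). There were 2 with a minimum of 1 (0.976%, beside 1.13%), 3 with a minimum of 100 (4.0%, beside 4.24%) and 5 in DESeq2 (2.44%, beside 2.33%). Calls were 0 in JTK_CYCLE (0 of all 7697 as well) and 0 with time as a factor (beside 0.429%). Without CT24 there were 2 (0.976%, beside 1.09%), Atf5 and Olfr56, with Tmie lost. With 1 library left out there were 0 to 2 (0% to 0.976%, beside 0.65% to 1.22%). The 5 calls in CDS reads became 2 without CT24 (1.24%, beside 9.6%) and 0 in JTK_CYCLE (beside 0.805%). With 1 library left out they were 3 to 6 (1.86% to 3.73%, beside 8.47% to 11.6%). A block for the library code of the sample descriptions (which is not the replicate number) was chosen after seeing the data. With it the CDS calls became 7 (4.35%, beside 10.4%), with Hnrnpf and Ramac added, while the 5′UTR call stayed at 1 (0.488%, beside 1.16%). Calls in the ratio were 0 in every setting run. The causes were not tested. The fitted peak-to-trough ratio of the summed share over time was 1.44, and 1.29 to 1.70 with 1 library left out. Atf5 5′UTR reads passed with total counts (adjusted p = 0.0429). With a replicate block the calls were 1 (0.488%, beside 1.03%), 5 (3.11%, beside 10.4%) and 0 (0% of all as well), and the share ratio was 1.44. Same-numbered samples did not deviate together (correlations from −0.08 to 0.12, above 0.1 in 2 of 21 pairs of time points), so the pairing has no basis here. Halving the even counts of CT16 replicate 2, chosen after seeing the data, gave 214 transcripts. With 2 mice per time, a small change in the ratio over the day may have been missed. At a minimum mean of 50 reads in each region, calls were also 0 of 82, beside 0 of all 3194.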
